A study of Saccharomyces cerevisiae with 2 samples.

Results

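The 9 genes described here encode the hexose transporters Hxt1 to Hxt7 and the glucose sensors Snf3 and Rgt2 of budding yeast. They were chosen by name from 6002 nuclear protein-coding genes. For each gene, every listed cytosine from −1200 bp of the start codon to 300 bp after the stop codon was used, which gave 2383 cytosines in the CCMT library and 1917 in the GCMT library. HXT1 and HXT3 encode low-affinity transporters. HXT2, HXT4, HXT6 and HXT7 encode high-affinity transporters, and HXT5 encodes a transporter of intermediate affinity.

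Hxt proteins carry glucose across the plasma membrane by facilitated diffusion, and yeast cells use different sets of them when glucose is plentiful or scarce. Snf3 and Rgt2 resemble transporters but act as receptors, and their signal leads to the loss of Mth1 and Std1, which the repressor Rgt1 needs to hold HXT genes off. Mig1 represses several high-affinity transporter genes when glucose is abundant.

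The data are NOMe-Seq profiles, in which a DNA methyltransferase marks accessible cytosines in nuclei and bisulfite sequencing reads the marks. Spheroplasts of strain S288C grown in YPD, a rich glucose medium, were fixed with formaldehyde, permeabilized with detergent and incubated for 60 min with CCMT or GCMT. CCMT, a form of M.CviQIX that lacks its N terminus, marks the cytosine that comes first in CC, and GCMT, the enzyme M.CviPI, marks the cytosine of GC. Budding yeast has no cytosine methylation of its own, so the methylation level, the percentage of reads methylated at the cytosines of a region, is a measure of accessibility in the population of cells.

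There was 1 library per enzyme and 1 growth condition, so no test over samples was possible, and glucose levels could not be compared. All intervals are exact 95% binomial intervals of the pooled reads, or intervals of a difference built from them, and cover counting error only. A read is counted at each cytosine it spans as if independent, so the intervals can be too narrow even for that error. Over the nuclear chromosomes the level was 9.53% in the CCMT library (median coverage 31 reads per cytosine) and 10.4% in the GCMT library (median coverage 13), so GCMT values are less precise. Treated naked DNA was not analysed here, and a preference of an enzyme for a sequence cannot be told apart from accessibility.

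Many of the values below come from stretches upstream of these genes that hold matches to CGGANNA, the letters searched for as the binding motif of Rgt1. The following 120-bp stretches held the most matches between −1200 and −201 bp of their genes (R64, the sacCer3 build), and they are shown because their levels span the range found upstream of these genes. Capitals mark the matches, which read TNNTCCG where the motif lies on the other strand. Each sequence is written 5′ to 3′ on the strand of its gene.
HXT1 (chrVIII:293004-293123, minus strand, −498 to −379 bp): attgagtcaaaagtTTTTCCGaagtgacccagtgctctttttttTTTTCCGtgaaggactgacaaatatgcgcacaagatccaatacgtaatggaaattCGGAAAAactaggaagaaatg
HXT3 (chrIV:1164973-1165092, minus strand, −432 to −313 bp): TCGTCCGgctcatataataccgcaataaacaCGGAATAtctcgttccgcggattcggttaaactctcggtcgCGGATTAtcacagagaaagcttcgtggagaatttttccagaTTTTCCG
HXT2 (chrXIII:287609-287728, plus strand, −470 to −351 bp): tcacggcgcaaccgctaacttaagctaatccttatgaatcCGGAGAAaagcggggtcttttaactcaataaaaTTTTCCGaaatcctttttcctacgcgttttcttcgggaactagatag
HXT7 (chrIV:1156558-1156677, minus strand, −749 to −630 bp): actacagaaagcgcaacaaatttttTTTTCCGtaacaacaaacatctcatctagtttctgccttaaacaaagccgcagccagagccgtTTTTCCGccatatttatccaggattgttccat
RGT2 (chrIV:212234-212353, plus strand, −1117 to −998 bp): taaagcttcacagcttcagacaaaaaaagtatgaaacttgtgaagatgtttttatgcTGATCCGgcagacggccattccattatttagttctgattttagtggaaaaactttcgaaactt

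Of these stretches, that of RGT2 was several-fold lower in level than the others. The HXT3 stretch, with 4 matches, reached 47.9% in the CCMT library (interval 42.9 to 52.9%) and 35.8% in the GCMT library (28.7 to 43.5%). The HXT1 stretch, with 3 matches, had 39.1% (33.7 to 44.6%) in the CCMT library and 42.0% (31.6 to 53.0%) in the GCMT library. Both are upstream of genes for low-affinity transporters, which are known to be induced by glucose. The HXT2 stretch had 38.0% and 41.4%, and the HXT7 stretch 26.1% and 44.5%, in the CCMT and GCMT libraries. Stretches not shown had similar levels, with 39.7% and 41.8% for HXT4 (1 match) and 41.2% and 39.4% for HXT6 (2 matches). That of HXT5 (2 matches) had 29.2% and 37.1%. The RGT2 stretch, with 1 match, had 4.22% (1.71 to 8.50%) in the CCMT library and 8.47% (4.82 to 13.6%) in the GCMT library, below the nuclear level in both.

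The 7 transporter genes had long accessible upstream regions. In the long promoter, set from −1200 to −1 bp of the start codon, their levels ranged from 21.1 to 31.4% in the CCMT library (mean 27.5%, SD over genes 3.27) and from 18.8 to 35.0% in the GCMT library (mean 26.1%, SD 5.31). The median over all genes was 10.6% (5960 genes) in the CCMT library and 11.7% (5943 genes) in the GCMT library. All 9 genes lay above the median in both libraries, but SNF3, with 11.4% and 12.4%, stood next to it.

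Most genes have another gene within 1200 bp, since the next gene upstream lies at a median distance of 434 bp. Among the 501 genes without an annotated gene in the long promoter, the median level was 13.3% in the CCMT library and 14.6% in the GCMT library. Set among those genes, the long promoters of the 7 transporters fell between the 84.9th and 98.8th percentile in the CCMT library and between the 66.9th and 99.0th in the GCMT library. HXT6 was highest and HXT5 lowest of the 7 in each library. HXT4, HXT6 and HXT5 hold another annotated gene in the long promoter, so they do not belong to the set they are compared with.

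HXT6, which encodes a high-affinity transporter, had the highest long promoter level of the 9 genes in both libraries. Its level was 31.4% (29.9 to 32.8%) in the CCMT library and 35.0% (32.9 to 37.2%) in the GCMT library. In the CCMT library the difference to HXT1, the next in order, had an interval that held 0 (1.20 points, −1.08 to 3.46), and the same was true of each step from HXT1 through HXT2, HXT3 and HXT7 to HXT4. In the GCMT library HXT6 stood above HXT7 by 4.48 points (1.60 to 7.35) and HXT7 above HXT1 by 4.47 points (1.51 to 7.39), while HXT1, HXT2, HXT4 and HXT3 followed in steps whose intervals held 0.

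At the lower end, the order was HXT5, RGT2 and SNF3 in both libraries. HXT5, which is expressed in slowly growing cells, had 21.1% in the CCMT library and 18.8% in the GCMT library. RGT2, the sensor of high glucose, had 17.0% and 17.4%, and SNF3, the sensor of low glucose, had 11.4% and 12.4%. RGT2 exceeded SNF3 by 5.63 points (3.71 to 7.60) in the CCMT library and by 5.04 points (2.01 to 7.96) in the GCMT library. HXT5 exceeded RGT2 by 4.04 points (1.89 to 6.15) in the CCMT library, but in the GCMT library the interval of the difference held 0 (1.41 points, −1.64 to 4.51).

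**Figure D1:**
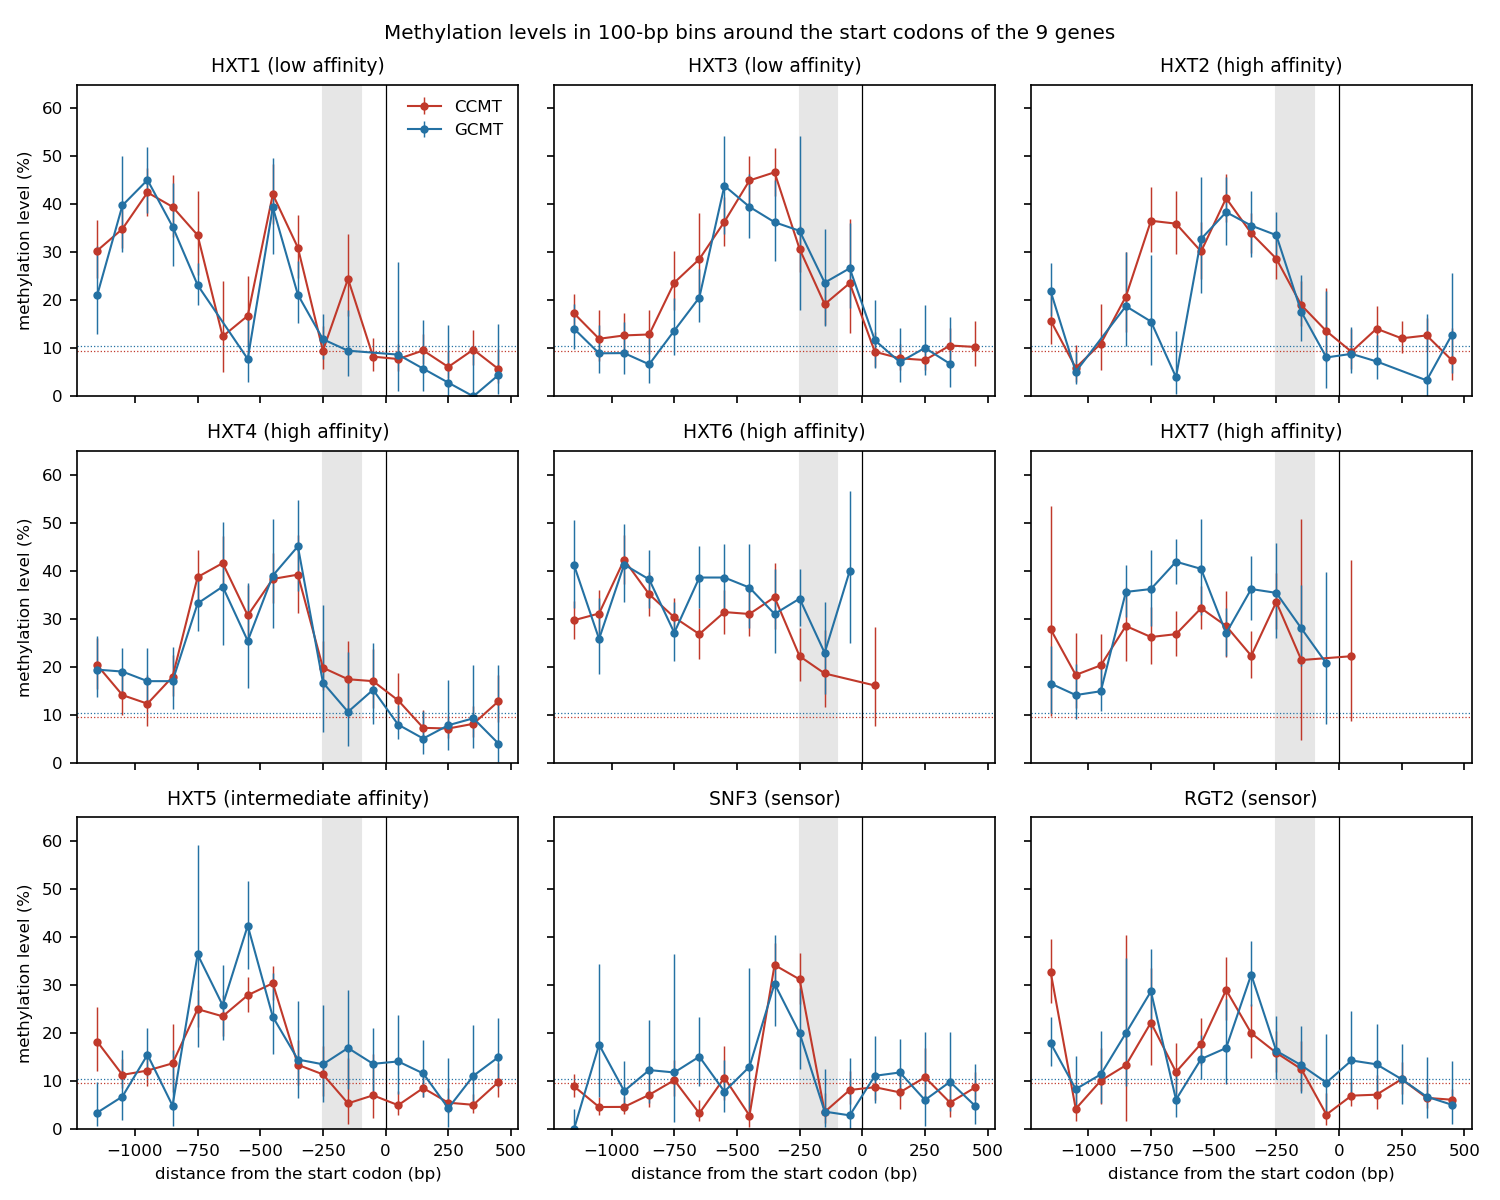
Methylation levels (%) in 100-bp bins from −1200 to 499 bp of the start codon (0, vertical line) for each of the 9 genes, with CCMT in red and GCMT in blue. Bars are exact 95% binomial intervals, dotted lines the nuclear levels of the libraries (9.53% and 10.4%), and the grey band −250 to −100 bp; bins with fewer than 10 reads are left out. HXT3 peaks at 46.7% (CCMT) between −400 and −301 bp, whereas the coding sequences stay near the dotted lines.

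In most of the 9 genes the highest level lay more than 400 bp upstream, which is also common among genes without an annotated gene in the long promoter. The profile over all genes was highest from −200 to −101 bp, where the median bin had 19.6% in the CCMT library and 20.7% in the GCMT library, and it declined to 9.39% and 9.52% from −500 to −401 bp. For 6 of the 9 genes in the CCMT library (HXT1, HXT2, HXT4, HXT6, HXT5 and RGT2) and 6 of the 9 in the GCMT library (HXT1, HXT3, HXT2, HXT6, HXT7 and HXT5), the highest 100-bp bin lay beyond −400 bp. Of the 7 transporter genes it did so in 5 in the CCMT library and 6 in the GCMT library. This holds for 29.9% of all genes in the CCMT library and 31.1% in the GCMT library. Among genes without an annotated gene in the long promoter, the shares are 57.7% and 60.1%, near that of the 9 genes. HXT4, HXT6, HXT5 and SNF3 do not belong to that set. The highest CCMT bins of HXT4 and HXT6 lay wholly in another annotated gene.

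HXT1 was accessible in a far and a near stretch. From −1000 to −901 bp it had 42.5% (37.5 to 47.7%) in the CCMT library and 45.1% (38.3 to 52.0%) in the GCMT library, and from −500 to −401 bp it had 42.1% and 39.4%. The far stretch went on to −701 bp, with 33.6% and 23.2% from −800 to −701 bp, and was followed by lower levels, 16.8% and 7.79%, from −600 to −501 bp. In the last 300 bp before the start codon the levels were 9.52% and 11.9% from −300 to −201 bp and 24.5% and 9.52% from −200 to −101 bp.

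HXT3 had a single broad peak. Its level was 36.4% in the CCMT library and 43.9% (33.9 to 54.3%) in the GCMT library from −600 to −501 bp. It reached 45.0% in the CCMT library and 39.5% in the GCMT library from −500 to −401 bp, and 46.7% (41.7 to 51.8%) and 36.3% from −400 to −301 bp. Beyond −800 bp its bins did not exceed 17.3% in the CCMT library and 14.1% in the GCMT library. From −500 to −401 bp HXT1 and HXT3 both had high levels, whereas from −1000 to −901 bp HXT3 had 12.7% and 9.02%, below HXT1 in each library.

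Of the genes for high-affinity transporters, HXT2 and HXT4 were less accessible at the far end of the long promoter. HXT2 peaked from −500 to −401 bp with 41.3% (36.3 to 46.4%) in the CCMT library and 38.4% (31.5 to 45.7%) in the GCMT library. Farther upstream the libraries differed for HXT2, with 36.0% (29.7 to 42.7%) in the CCMT library and 2 of 50 reads methylated in the GCMT library (0.488 to 13.7%, 4 cytosines) from −700 to −601 bp, and 36.6% and 15.6% from −800 to −701 bp. HXT4 was highest from −700 to −601 bp in the CCMT library (41.6%) and from −400 to −301 bp in the GCMT library (45.1%), and its profiles in the libraries were the most alike of the 9 genes (Pearson r = 0.923 over 12 bins). HXT6 and HXT7 were accessible over most of the long promoter, with their highest bins at 42.3% and 33.5% in the CCMT library and 41.3% and 41.9% in the GCMT library. In the GCMT library the HXT7 bins from −1200 to −901 bp had only 14.1 to 16.5%, below the 17.0 to 19.4% of HXT4. Across the 9 genes the correlation of the CCMT and GCMT bins ranged from 0.493 to 0.923 over 10 to 12 bins, which is a description of bins that share their DNA.

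SNF3 was accessible over about 200 bp. It had 34.2% (29.7 to 38.8%) in the CCMT library and 30.3% (21.5 to 40.4%) in the GCMT library from −400 to −301 bp, and 31.2% and 20.0% from −300 to −201 bp. In the next bin upstream of these it had 2.82% and 13.0%, and from −200 to −101 bp it had 3.57% and 3.64%. RGT2 was highest from −1200 to −1101 bp in the CCMT library (32.7%, 26.3 to 39.6%) and from −400 to −301 bp in the GCMT library (32.2%, 25.7 to 39.1%). The CCMT library also had 29.0% (22.8 to 35.8%) from −500 to −401 bp, an interval that overlaps that of its maximum.

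From −800 to −401 bp the 7 transporter genes were all well above the median over all genes. Their mean there was 32.7% (SD 4.21) in the CCMT library and 31.1% (SD 4.24) in the GCMT library, beside medians over all genes of 9.08% and 9.22%. Among genes without an annotated gene in the long promoter the medians were 12.4% and 12.7%. Set among those genes, to which HXT4, HXT6 and HXT5 do not belong, the 7 lay between the 89.1th and 98.7th percentile in the CCMT library. In the GCMT library they lay between the 74.9th (HXT1) and 95.9th (HXT7). HXT4 had the highest CCMT level, 37.8% (35.0 to 40.6%), and HXT7 the highest GCMT level, 36.1% (33.1 to 39.2%). HXT5, whose whole long promoter was the lowest of the 7, still had 27.2% and 30.9% in this stretch. RGT2 had 20.2% and 16.3%, and SNF3 6.92% and 11.5%.

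In contrast, the stretch from −250 to −100 bp, about where the profile over all genes peaks, was near the median over all genes. The median of the 9 genes was 16.9% in the CCMT library and 16.9% in the GCMT library, and the median over all genes 17.9% and 19.3%. Among genes without an annotated gene in the long promoter the median was lower, 13.8% and 14.6%. Of the 9 genes, 3 in the CCMT library (HXT3, HXT2 and HXT7) and 4 in the GCMT library (these and HXT6) exceeded the median over all genes. The lower median was exceeded by all but RGT2 and HXT5 in the CCMT library. In the GCMT library it was exceeded by all but HXT1, HXT4, SNF3 and RGT2. The level from −800 to −401 bp was above that from −250 to −100 bp in 7 of 9 genes in the CCMT library, all with intervals above 0, and in 9 of 9 in the GCMT library, 3 of them with intervals above 0. The exceptions in the CCMT library were HXT7, at −1.19 points (−9.71 to 6.59), and SNF3, at −7.02 points (−11.8 to −2.77). The share of all genes in which the farther stretch is higher was not counted. Among genes without an annotated gene in the long promoter the farther and nearer medians were close. They were 12.4% and 13.8% in the CCMT library, and 12.7% and 14.6% in the GCMT library.

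HXT7 had the highest level of this short stretch in the CCMT library, 30.1% (22.8 to 38.3%), and 31.4% (24.5 to 38.9%) in the GCMT library. HXT1 had 16.9% and 10.4%, although its long promoter was among the highest. HXT5 had 6.94% (2.29 to 15.5%) and 16.9% (8.44 to 29.0%), each from 4 cytosines. The values of this stretch rest on 4 to 22 cytosines per gene, and most neighbours in the order had differences whose intervals held 0.

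**Figure D2:**
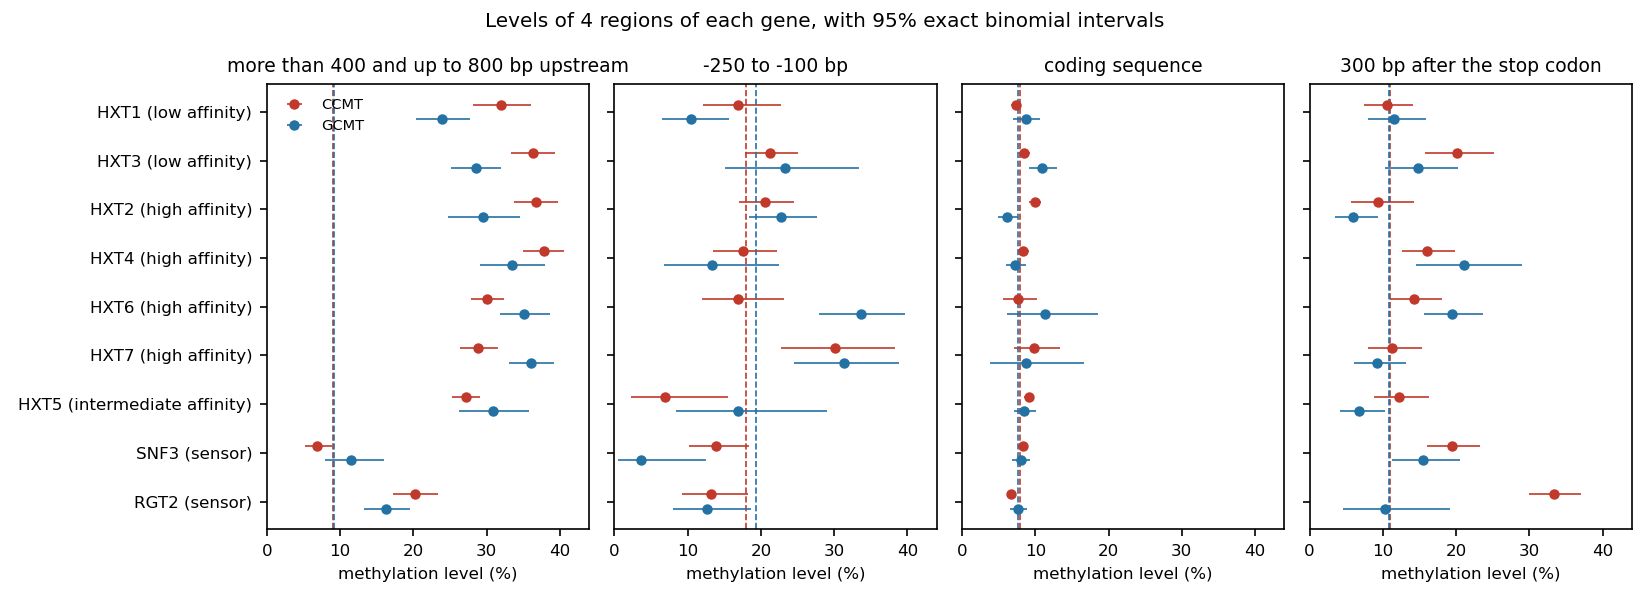
Methylation levels (%) of 4 regions of each gene, with CCMT in red above GCMT in blue, exact 95% binomial intervals as bars and medians over all genes as dashed lines. From −800 to −401 bp the 7 transporter genes lie at 23.9% or above in both libraries, right of the dashed lines at 9.08% and 9.22%; from −250 to −100 bp the genes lie on both sides of them.

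A promoter was called accessible relative to its gene where the level from −250 to −100 bp was at least 2 times that from 100 to 500 bp after the start codon. In the CCMT library 3 of the 7 genes measured were called (HXT1, HXT3 and HXT4), against 55.7% of all genes, and in the GCMT library 4 of 7 (HXT1, HXT3, HXT2 and HXT4), against 60.1% of all genes. HXT6 and HXT7 could not be called, because no cytosine is listed from 100 to 500 bp of either. The shares among the members are near the background in both libraries.

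The coding sequences were poorly accessible. Their levels ran from 6.73 to 9.92% in the CCMT library and from 6.20 to 11.3% in the GCMT library, beside medians over all genes of 7.87% and 7.69%. The 11.3% is that of HXT6, from 10 cytosines and 115 reads, and few cytosines are listed in HXT6 and HXT7 in either library. In the CCMT library some of the cytosines listed in HXT6 and HXT7 lie in sequence that the genes share, as described below. The long promoter exceeded the coding sequence in 9 of 9 genes in each library, with every interval of the difference above 0. Over all genes the median was also higher in the long promoter, at 10.6% in the CCMT library and 11.7% in the GCMT library. In bins of 100 bp along the coding sequences, 1 of 148 usable bins in the CCMT library and 2 of 134 in the GCMT library reached 2 times the nuclear level. Shares over all genes were not counted for the genes or for the bins.

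Downstream of its stop codon RGT2 was among the highest genes in the CCMT library and near the median in the GCMT library. In the 300 bp that follow it, the CCMT level was 33.4% (30.0 to 37.0%, 23 cytosines), the 99.5th percentile of all genes, and the GCMT level was 10.3% (4.53 to 19.2%, 8 cytosines and 78 reads), the 46.4th percentile. The difference between the libraries was 23.2 points (CCMT minus GCMT, 13.6 to 29.9). By 100-bp bins, CCMT gave 6.36%, 32.5% and 40.3% with distance from the stop codon, and GCMT gave 3.03%, 23.1% and 5.26%, the last from 2 cytosines. SNF3 had 19.4% and 15.5% in this region. The 7 transporter genes had 9.33 to 20.1% in the CCMT library and 5.88 to 21.1% in the GCMT library.

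Accessibility was also counted in 50-bp windows of the long promoters, where a window with at least 10 reads was called open at 2 times the nuclear level (19.1% for CCMT and 20.8% for GCMT). Of the windows of the 9 genes, 113 of 201 (56.2%) were open in the CCMT library and 91 of 185 (49.2%) in the GCMT library. Over all genes, 18.3% of windows were open in the CCMT library and 18.2% in the GCMT library. For genes without an annotated gene in the long promoter the shares were 27.3% and 27.8%. Of the 177 windows usable in both libraries, 80 were open in both and 65 in neither. The shares over all genes open in both or in neither were not counted.

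The longest runs of open windows were in HXT7, HXT6 and HXT4, but HXT2, also a gene for a high-affinity transporter, did not exceed HXT1. HXT7 had 19 of 20 windows open in the CCMT library and 16 of 22 in the GCMT library, with 700 bp (−900 to −201 bp) in which every window was open in both libraries. HXT6 had 20 of 22 and 21 of 22 open, with a longest run of 500 bp (−750 to −251 bp). HXT4 also had a run of 500 bp (−800 to −301 bp), and HXT2 of 350 bp (−550 to −201 bp). HXT1 had 350 bp (−1100 to −751 bp) and HXT3 300 bp (−550 to −251 bp). The runs were shorter in HXT5 (150 bp), SNF3 (100 bp) and RGT2 (50 bp). Run lengths were not set beside those of all genes.

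**Figure D3:**
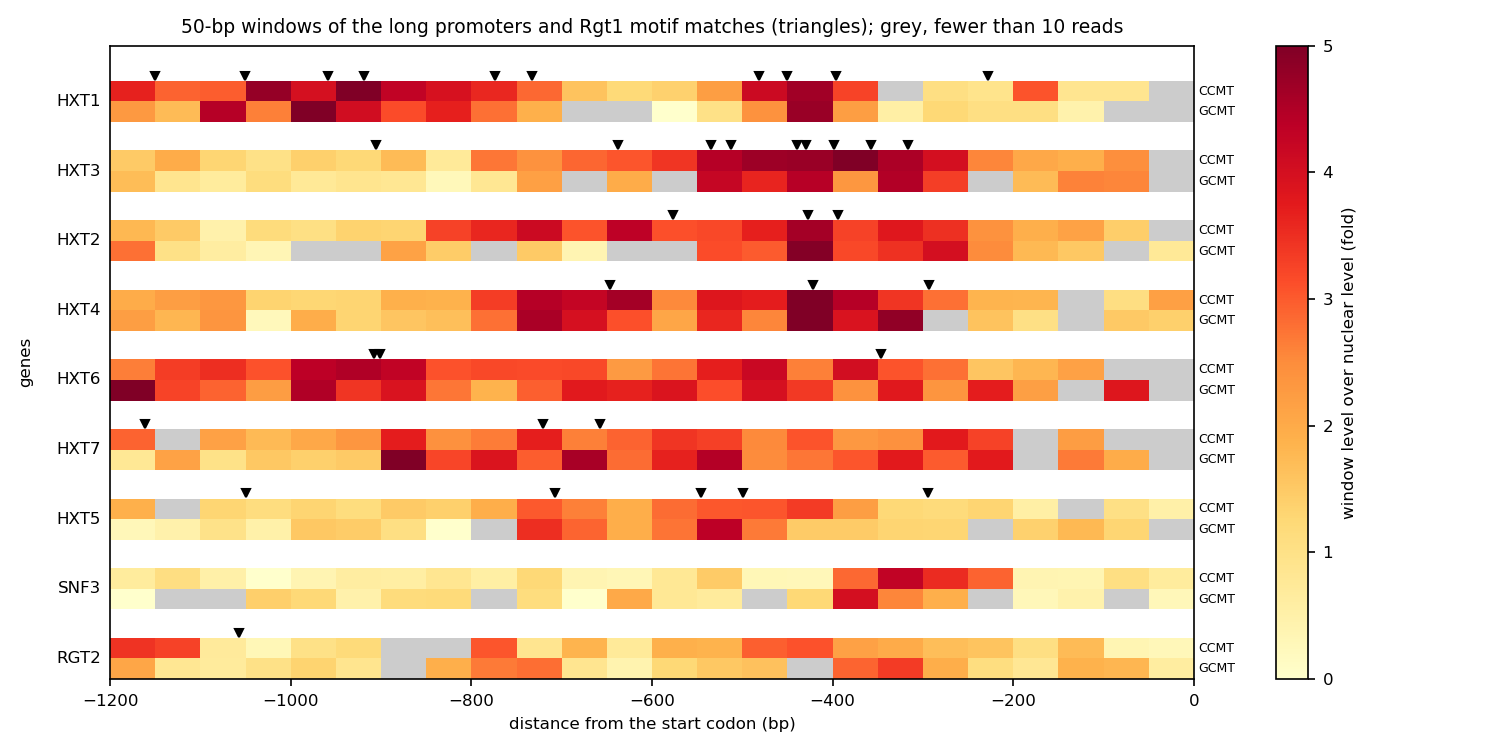
Level of each 50-bp window from −1200 to −1 bp, as the fold over the nuclear level of its library (colour), with the CCMT strip above the GCMT strip for each gene; triangles mark matches to the Rgt1 motif and grey windows have fewer than 10 reads. The HXT6 and HXT7 strips are dark over most of their length, and SNF3, with 0 matches, is dark only near −400 to −201 bp.

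Low- and high-affinity transporter genes were compared over the long promoter. The genes for low-affinity transporters averaged 29.0% (27.9 and 30.2%) in the CCMT library, and those for high-affinity transporters 28.4% (SD 2.01, n = 4 genes). The difference was 0.633 points, with a counting interval from −0.800 to 2.07. In the GCMT library the averages were 24.2% and 28.8%, a difference of −4.66 points (−6.51 to −2.81), but HXT1, at 26.1%, lay above HXT2 and HXT4, at 25.3% and 24.5%. The ranges of the groups overlapped in both libraries, and the GCMT difference was smaller in size than the SD over the high-affinity genes (4.89 points). Leaving out single genes moved the GCMT difference to −2.60 points without HXT6, −2.79 without HXT3 and −6.53 without HXT1, and it lay between −6.11 and −4.10 points without HXT2, HXT4 or HXT7.

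By distance, the affinity groups overlapped in every stretch but one. From −800 to −401 bp in the GCMT library the genes for low-affinity transporters had 23.9 and 28.5%, below the 29.5 to 36.1% of those for high-affinity transporters (−7.35 points, −10.6 to −4.14). In the CCMT library the same stretch gave means of 34.2% and 33.4% with overlapping ranges. Within −250 to −100 bp the differences were −2.21 points (−6.46 to 2.04) in the CCMT library and −8.40 points (−14.5 to −2.32) in the GCMT library, again with overlapping ranges. Of the 50-bp windows, 29 of 45 (CCMT) and 20 of 40 (GCMT) were open in the low-affinity genes, and 67 of 88 (CCMT) and 58 of 84 (GCMT) in the high-affinity genes. Whether the difference between the groups depends on the enzyme was not tested.

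The sensor genes were less accessible than the transporter genes. Over the long promoter the sensors averaged 14.2% (11.4 and 17.0%) in the CCMT library, against 27.5% for the transporters, and 14.9% (12.4 and 17.4%) in the GCMT library, against 26.1%. The differences were −13.3 and −11.2 points, and no sensor reached the lowest transporter. In open windows the sensors had 21.7% in the CCMT library and 20.0% in the GCMT library, close to all genes, and the transporters 66.5% and 57.2%. The distance to the neighbouring gene moves with this result for SNF3, since 54.2% of its long promoter lies in the coding sequence of SEC31, which encodes a COPII coat subunit. Outside SEC31 the SNF3 level was 21.5% (19.3 to 23.9%) in the CCMT library and 16.6% (12.9 to 20.9%) in the GCMT library. When only cytosines outside other genes were used for all 9, the difference shrank to −6.76 points in the CCMT library and −8.78 points in the GCMT library. On that basis the groups overlapped in the CCMT library, where SNF3 (21.5%) exceeded HXT4 (17.2%), and not in the GCMT library. That basis also leaves out the accessible DNA annotated as AHT1 upstream of HXT4 (34.5% in the CCMT library and 32.1% in the GCMT library).

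The long promoters of HXT4, HXT6, HXT5 and SNF3 hold other annotated genes, and these differed in level. AHT1, annotated on the opposite strand within the HXT4 upstream region, covers 45.8% of the HXT4 long promoter and had 34.5% (32.1 to 36.8%) in the CCMT library and 32.1% (28.5 to 35.8%) in the GCMT library. The rest of that long promoter had 17.2% and 18.6%. YDR344C covers 37.0% of the HXT6 long promoter and had 34.4% and 33.7%, beside 28.2% and 35.9% in the rest. PAL2, at the far end of the HXT5 long promoter, had 12.9% and 9.23%, beside 23.4% and 21.9% in the rest. The accessible DNA of HXT4 and HXT6 thus lay largely or partly in annotated genes, while for HXT5 and SNF3 it lay outside them. Whether the DNA annotated as AHT1 and YDR344C also serves as promoter DNA of HXT4 and HXT6 was not tested.

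HXT6 and HXT7 required a separate check, because their coding sequences of 1713 bp are 99.8% identical and a read from one can map to the other. They differ at 3 positions, counted from 1 at the A of the start codon and given with the HXT6 base first, as T1632C, G1666A and T1677C. Only G1666A changes the protein of 570 residues, as A556T. All 3 lie near the end of the coding sequence, after 1631 bp without a difference. On the strand of the genes, T1632C and T1677C read the same after conversion of C to T, and G1666A does not. The stretch from 1621 to 1690, with the differing bases in capitals, is shown because it is the only part of the coding sequence where the genes can be told apart by their letters (R64, minus strand, 5′ to 3′ on the strand of the genes).
HXT6 (chrIV:1159631-1159700): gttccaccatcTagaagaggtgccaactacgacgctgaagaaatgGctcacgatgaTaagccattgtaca
HXT7 (chrIV:1154239-1154308): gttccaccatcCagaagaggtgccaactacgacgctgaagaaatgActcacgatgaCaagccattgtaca

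The listed cytosines followed this identity. Of 163 CC cytosines in each coding sequence, 30 are listed for HXT6 and 27 for HXT7, and of 120 and 118 GC cytosines, 10 and 9. No cytosine is listed from 100 to 1399 bp after either start codon in either library. The listed ones lie next to the start codon or toward the stop codon, so the coding sequence levels of HXT6 (7.66% in the CCMT library and 11.3% in the GCMT library) and HXT7 (9.89% and 8.79%) describe the ends only. In the CCMT library, 14 of the 30 listed in HXT6 and 11 of the 27 in HXT7 are shared by the genes. Every 75-base read over a shared cytosine matches more than a single place after conversion. All CC cytosines listed next to the start codons are shared, and no listed GC cytosine is. Reads were judged singly here, although they were sequenced in pairs and a mate in other DNA can place a pair. Whether the CCMT levels of these coding sequences mix reads of both genes was therefore not tested.

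The long promoters of HXT6 and HXT7 were measured separately without this limit. The last 84 bases before the start codon are identical, the best local alignment of the long promoters covered 97 bases (97.9% identity), and every CC and GC cytosine in them is listed. No cytosine of the long promoters was covered only by 75-base reads that match more than a single place after conversion. Over the long promoter, HXT6 exceeded HXT7 by 4.05 points (1.66 to 6.41) in the CCMT library and by 4.48 points (1.60 to 7.35) in the GCMT library.

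That difference came from the far end. From −1200 to −801 bp HXT6 had 34.1% in the CCMT library and 37.0% in the GCMT library, and HXT7 22.7% and 22.6%, which are differences of 11.4 points (6.66 to 15.8) and 14.4 points (9.66 to 19.1). From −800 to −401 bp the differences were 1.16 points (−2.30 to 4.59) and −0.951 points (−5.51 to 3.64), and from −400 to −1 bp −1.34 points (−6.67 to 4.02) and −0.838 points (−6.94 to 5.25). From −250 to −100 bp, HXT6 had 16.9% and HXT7 30.1% in the CCMT library, from 7 cytosines each, and 33.6% and 31.4% in the GCMT library. There the libraries differed for HXT6 by −16.7 points (CCMT minus GCMT, −24.6 to −8.28).

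**Figure D4:**
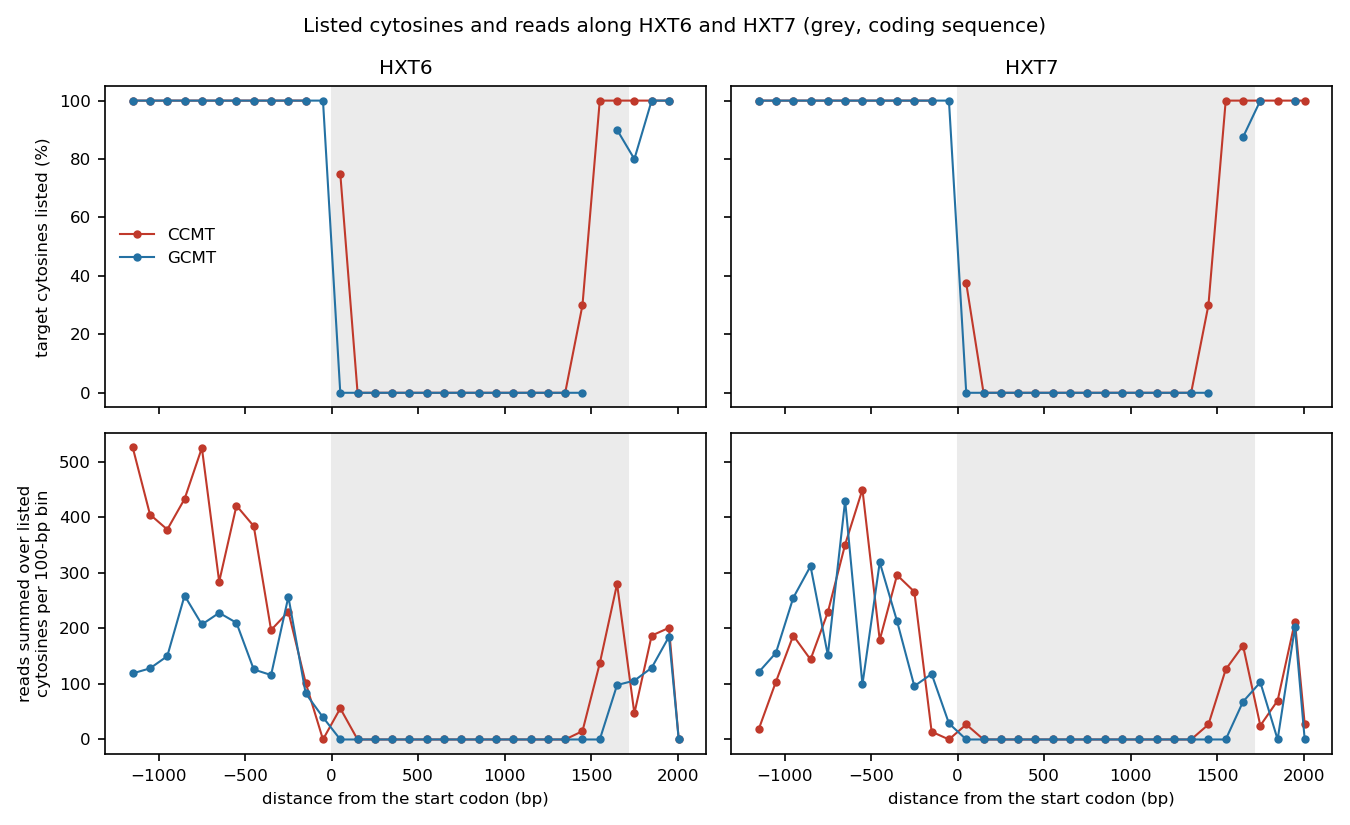
Share of target cytosines listed (%, upper panels) and reads summed over the listed cytosines (lower panels) in 100-bp bins from −1200 bp of the start codon to 300 bp after the stop codon of HXT6 and HXT7, with CCMT in red and GCMT in blue and the 1713-bp coding sequence in grey. All upstream bins with targets are at 100%, and the coding sequence drops to 0 between 100 and 1399 bp.

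Matches to the Rgt1 motif CGGANNA were most frequent in the genes for low-affinity transporters. The HXT1 long promoter held 10 matches on both strands together, a number no other gene reached among 5996, and HXT3 held 9, which 3 genes reached, HXT1 and HXT3 included. HXT5 held 5, HXT2, HXT4, HXT6 and HXT7 held 3 each, RGT2 held 1 and SNF3 held 0. At least 1 match stands in 73.0% of all long promoters, with a median of 1, so the presence of a match says little.

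Near the Rgt1 motif matches of the 7 transporter genes the levels were higher than elsewhere in the same long promoters. Within 25 bp of the centre of a match, the CCMT level was 33.3% (32.0 to 34.6%), beside 25.7% for the rest, a difference of 7.60 points (6.14 to 9.07). In the GCMT library the levels were 32.4% and 25.3% (7.05 points, 5.04 to 9.08). Over all genes with a match the differences were 3.32 and 4.10 points. Position along the promoter moves with the motif: between −800 and −200 bp alone, the difference was 4.71 points in the CCMT library and 1.95 points in the GCMT library, and its part in the result was not tested further.

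The genes were not uniform in this. In HXT3 the difference was 18.4 points (15.0 to 21.8) in the CCMT library and 13.6 points (9.17 to 18.1) in the GCMT library, and in HXT4 19.3 and 20.8 points. In HXT7 it was −1.30 points (−7.30 to 5.29) and 12.1 points (6.56 to 17.8), and in HXT6 6.05 and −0.910 points. The motif contains a CC on its other strand, so CCMT can read a cytosine of the motif itself: the 36 such cytosines of the transporter genes had 40.0% (37.1 to 43.0%), and CC cytosines 8 to 50 bp from a match centre 31.4% (30.3 to 32.5%). Over all genes with a match the same values were 17.4% and 14.3%.

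Matches for other factors differed between the members. Letters searched for as the Mig1 motif (the form CCCCGC, the form CCCCAC, the form CCCCGG and the form CCCCAG, on both strands, which can overlap the stress response element) occurred 4 times in HXT2 and in HXT4, 3 times in HXT6, 2 times each in HXT1, HXT3, HXT7 and SNF3, 1 time in HXT5 and 0 times in RGT2, and 47.2% of all long promoters hold at least 1. The stress response element CCCCT, the motif of Msn2 and Msn4, occurred 7 times in HXT6, a number that 5 genes of 5996 reached, HXT6 included, and 4 times in HXT7, with at least 1 match in 60.8% of long promoters. The TATA element TATAAA was found in all 9 long promoters and in 81.4% of all. HXT6 and HXT7 carry it at the same position, −164 bp.

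Differences between the enzymes within single genes were small over the long promoter. HXT1 (4.10 points, 1.25 to 6.91) and HXT3 (5.63 points, 3.03 to 8.18) were higher with CCMT, and HXT6 (−3.65 points, −6.27 to −1.05) and HXT7 (−3.22 points, −5.88 to −0.551) were lower with CCMT. The intervals of the other 5 genes held 0. CC and GC cytosines stand at different positions of the same DNA, and the part of this in the differences was not tested.

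The other genes of the family had lower levels upstream. There are 10 other genes of the hexose transporter family here, HXT8 to HXT11, HXT13 to HXT17 and GAL2, which are mostly little expressed in glucose medium. Of these, 1 of 7 measured was called in each library (HXT14 in both), against 55.7% (CCMT) and 60.1% (GCMT) of all genes. Their median long promoter level was 10.3% in the CCMT library (10 genes) and 11.4% in the GCMT library (8 genes measured), near the medians over all genes. From −250 to −100 bp their medians were 9.31% and 8.33%. HXT14 had 38.2% and 27.3% there, and GAL2, the galactose permease, 10.1% and 13.0%, the highest by mean percentile. HXT13, with 5.80% and 3.41%, and HXT17, with 6.97% and 2.70%, were the lowest. Several of these genes are near-identical to each other, and 3 of them had too few listed cytosines for a promoter value.

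Among 18 genes for glucose signalling and repression, 11 of 18 were called in the CCMT library and 4 of 17 in the GCMT library, against the shares of all genes given above. Their median from −250 to −100 bp was 19.8% and 19.3%, and their median long promoter level 14.5% in the CCMT library and 15.9% in the GCMT library. The long promoter levels ranged from 8.51 to 30.6% in the CCMT library and from 9.29 to 33.0% in the GCMT library. Some thus lay within the range of the transporter genes. GLC7, which encodes the catalytic subunit of protein phosphatase 1, had 30.9% and 28.0% from −250 to −100 bp, and YCK1, for a casein kinase that acts with the sensors, had 28.2% and 29.9%. REG1, for the regulatory subunit that directs Glc7 to glucose repression, had 5.23% and 3.57%. RGT1, whose product represses the HXT genes, had 7.39% and 1.30% there.

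The upstream profile most like that of each gene was sought among 4004 or 4005 genes with reads in all 12 bins, by the mean of the CCMT and GCMT Pearson correlations. HXT3 was most like BAP2, which encodes an amino acid permease (r = 0.853 and 0.952). HXT4 was most like TPH3 (0.855 and 0.903), HXT5 like YGK3 (0.874 and 0.817), SNF3 like PUS2 (0.952 and 0.795) and RGT2 like FKH2 (0.585 and 0.786). No other member was the nearest to any of these 5, and the closest member had a mean r of 0.396 to 0.581. HXT1, HXT2, HXT6 and HXT7 each lacked reads in a bin and were not compared.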

How the data were processed

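NOMe-Seq libraries of S288C nuclei treated with CCMT or GCMT (1 each, grouped by the treatment label) were analysed. Incubation time and enzyme form are from the study's methods, which give other fixation and detergent concentrations than the labels and list the CCMT library under another sample number, so that protocol may not be exactly that of this library. The authors used BMap and the sacCer3 build to map paired bisulfite reads, and pipelines of their own for the summary; versions, read filters and duplicate handling are not given in the sources used here. For each cytosine the authors deposited a read count, without normalization, and a methylation level as a fraction. Cytosines with fewer than 5 reads are not listed. Their product was whole to the rounding of the fraction (within 0.0024), which gave methylated reads. All listed cytosines matched CC or GC in R64.

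Levels are methylated reads over all reads of a region, with at least 3 cytosines and distances counted from the A of the start codon as 0. Intervals are Clopper-Pearson, and those of differences combine them by the MOVER method. They cover counting error only and can be too narrow, since a read counts at each cytosine it spans and reads may include PCR copies. The libraries hold 28485123 (CCMT) and 10967078 (GCMT) reads summed over nuclear cytosines. Members and gene lists were chosen with earlier results of these data known. All 9 members are named. From the lists the 2 highest and the 2 lowest genes by mean percentile of the level from −250 to −100 bp are named. The highest bin and the cytosine of the motif were added after the data had been seen. Alternatives were the mean of single-cytosine levels, other coverage, cytosine and region choices, and leaving out genes. Levels, calls and windows were tested on simulated data in which methylated reads were redrawn at the listed cytosines. Python 3.11.15 was used with biopython 1.88, scipy 1.17.1, matplotlib 3.10.9, pandas 2.3.3 and numpy 2.4.6.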

Additional observations from a re-analysis of the deposited data

Results flagged for a closer look

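In 2 genes the level from −250 to −100 bp relative to that from 100 to 500 bp after the start codon had opposite signs in the libraries. For HXT5 the difference was −0.337 points (−5.16 to 8.26) in the CCMT library and 5.35 points (−3.99 to 17.8) in the GCMT library. For SNF3 it was 5.66 points (1.41 to 10.5) in the CCMT library and −5.55 points (−10.7 to 3.86) in the GCMT library. The difference between the libraries was not tested, and 3 of these 4 intervals held 0. The upstream values rest on 4 cytosines in each library for HXT5, and on 7 (CCMT) and 6 (GCMT) cytosines for SNF3.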

How the results depend on the processing

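Of 67 alternative values of the main results in the CCMT library, 56 stayed within their limit, 10 moved and 1 turned its sign, and of 51 in the GCMT library 40 stayed, 10 moved and 1 turned. The cause was not tested except where the alternative itself changes what is counted. The number of promoters called (3 in the CCMT library) was 5 with reads thinned to the GCMT depth, 6 with the whole coding sequence as the gene body (of 9 measured) and 6 at 1.5 times the gene body; in the GCMT library (4) it was 2 of 3 with at least 10 cytosines per region. The low minus high affinity difference of 0.633 points in the CCMT library was 3.85 outside other genes, −1.62 from −800 to −1 bp and 2.10 with HXT5 counted as high affinity. It also changed sign within its limit. It was −0.738 points with the mean of single-cytosine levels, −0.237 without CC cytosines that follow a G, and −0.473 without HXT1. The difference of −4.66 points in the GCMT library was −8.01 from −800 to −1 bp and −2.65 with HXT5 counted as high affinity. It was −6.53, −2.79 and −2.60 without HXT1, HXT3 and HXT6. HXT6 minus HXT7 turned to −1.34 points (CCMT) and −0.838 points (GCMT) from −400 to −1 bp. Sensors minus transporters was −6.76 (CCMT) and −8.78 points (GCMT) outside other genes. Open windows numbered 71 (CCMT) and 50 (GCMT) at 3 times the nuclear level, and 60 of 106 and 50 of 105 with 100-bp windows. The difference near Rgt1 matches was 4.71 (CCMT) and 1.95 points (GCMT) from −800 to −200 bp. Of 108 alternative long promoter levels of single genes 17 moved, and of 89 levels from −250 to −100 bp 2 moved. No paired analysis was possible because there is 1 library per enzyme and no test. At the GCMT depth, regions with few cytosines have intervals of 10 points or more.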
